A study of Caenorhabditis elegans with 16 samples.

Results

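The cytochrome P450 genes of *C. elegans* outside the *cyp-35* genes were followed in a whole-worm RNAseq experiment. A row of the count table was taken when its gene name began with *cyp-*, a number and a capital letter, and the *cyp-35* rows were left out. The rule used no measured value, but the P450 genes were chosen with earlier results of these data known. It found 65 genes among the 42048 in the table. They carry 14 different numbers, called family numbers here, and 64 of them are annotated as protein coding in the WBcel235 assembly. The remaining gene, *cyp-34A4*, was not matched to that annotation by its name.

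*syp-2::AID* worms and wild-type N2 worms, taken as young adults 18 to 24 h after the L4 stage, spent 4 h on auxin plates (IAA at 4 mM) or on control plates. This gave 4 groups of 4 biological replicates: *syp-2::AID* with auxin, *syp-2::AID* without auxin, N2 with auxin and N2 without auxin. SYP-2 is a protein of the synaptonemal complex, and in the degron strain it carries a tag that auxin makes a target of TIR1, a plant F-box protein. *syp-2::AID* worms make TIR1 in the germline, from a transgene (ieSi38) under the *sun-1* promoter, whereas N2 worms have neither TIR1 nor the tag. The control plates had no auxin, and the sources used here do not say whether they held its solvent, so every auxin effect below is an effect of the auxin plates. RNA came from whole worms, and a tissue with fewer cells cannot be told apart from one with less RNA per cell.

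Cytochromes P450 are heme enzymes that insert an oxygen atom into lipids, hormones and foreign chemicals. Most of them take their electrons from NADPH-cytochrome P450 reductase, which *emb-8* encodes in the worm, and some are helped by cytochrome b5. Worms use P450s to clear foreign compounds, above all in the intestine, and also to make eggshell lipids, eicosanoids from polyunsaturated fatty acids, and the steroid hormone of the DAF-9 pathway. The family includes many young duplicates that lie side by side in the genome.

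Levels are given in CPM, which is the count of a gene per 1000000 counts of its library, with the library total first scaled by edgeR's TMM factor. Library totals lay between 13964761 and 18741524 counts, and 1 count was worth 0.0523 to 0.0739 CPM. Of the 65 P450 genes, 50 passed edgeR's filter on low counts (default, at a minimum of 10) and were tested with 11776 genes in all by its quasi-likelihood test, with Benjamini-Hochberg adjustment. The words rose and fell are kept for genes with an adjusted p under 0.05, the threshold used throughout. Of the 50, 37 passed the filter on the untreated libraries alone and 13 only with the help of the auxin libraries. These 13 were *cyp-13A6*, *cyp-13A7*, *cyp-13A8*, *cyp-13A10*, *cyp-13B1*, *cyp-14A4*, *cyp-32B1*, *cyp-33C5*, *cyp-33D3*, *cyp-33E3*, *cyp-34A6*, *cyp-34A10* and *cyp-37B1*. A gene that enters in this way is likely to differ, so counts over the tested genes are descriptions.

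Of the 16 libraries 2 stood apart, namely replicates 3 and 4 of the *syp-2::AID* group with auxin. The share of counts on ribosomal protein genes was 18.92% and 19.03% in them, against 11.4% to 15.4% elsewhere, and the levels of 11464 genes with a known exon length were lower for longer genes in them (Spearman's rho -0.55 and -0.63, against 0.05 to 0.28). The summed level of 7 intestine markers, all detected in every library, lay at 2056 to 2268 CPM with auxin and 2393 to 2852 CPM without auxin in *syp-2::AID* worms. In N2 worms it lay at 1663 to 2291 CPM with auxin and 2466 to 2775 CPM without. Most of that sum was *asp-1*. Its means were 1483 CPM with auxin and 1714 CPM without in *syp-2::AID* worms, and 1302 and 1849 CPM in N2 worms. Of the 7 markers, 1 had a positive log2 fold change in *syp-2::AID* worms (*ges-1*, 0.16). In N2 worms 3 did (*elt-2*, 0.32, *ges-1*, 0.29, and *ifb-2*, 0.01). Whether these shifts play a part in the P450 results was not tested beyond the refits given with them.

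The summed level of the P450 genes without the abundant *cyp-31A* genes was 378, 376, 388 and 402 CPM in *syp-2::AID* worms with auxin, against 182, 174, 205 and 216 CPM without auxin. In N2 worms the sums were 318, 396, 344 and 325 CPM with auxin, against 184, 165, 171 and 217 CPM without auxin. All 4 auxin libraries of each strain lay above all 4 of its untreated ones. The means were 386 ± 11.6 CPM with auxin and 194 ± 19.7 CPM without in *syp-2::AID* worms, and 346 ± 35.3 CPM with auxin and 184 ± 23 CPM without in N2 worms (SD, n = 4 each). With the *cyp-31A* genes included, the sum averaged 661 ± 25.4 CPM with auxin and 454 ± 15.5 CPM without in *syp-2::AID* worms. In N2 worms that fuller sum averaged 585 ± 22.6 CPM with auxin and 425 ± 6.72 CPM without (SD, n = 4 each). Both sums also cover the 15 genes too low to test.

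In *syp-2::AID* worms 24 of the 50 tested P450 genes rose with auxin (48%), none fell and 26 did not pass, where 5.27% of all tested genes rose and 1.93% fell. In N2 worms 21 of 50 rose (42%), none fell and 29 did not pass, where 3.99% of all tested genes rose and 1.44% fell. An unadjusted p under 0.05 was reached by 29 P450 genes in *syp-2::AID* worms, where 30% of all tested genes reached it, and by 30 P450 genes in N2 worms, where 18.5% of all tested genes did. Of these P450 genes 1 in each strain, *cyp-34A8*, was lower with auxin, and DESeq2 and limma-voom passed no P450 gene as lower either. Of the 37 genes that needed no auxin library to pass the filter, 13 rose in *syp-2::AID* worms and 10 in N2 worms. Their median log2 fold change was 0.59 in *syp-2::AID* worms, where that of all tested genes was 0.03, and 0.57 in N2 worms, where that of all tested genes was 0.01. Over all 50 tested P450 genes the medians were 0.85 and 0.72, which include the 13 genes that entered through their auxin libraries (medians 2.50 in each strain). With both libraries that stood apart left out, 19 of 51 tested P450 genes rose in *syp-2::AID* worms. In that refit 444 of all tested genes passed there in either direction, against 848 with both kept. For comparison, 7 of 8 tested *cyp-35* genes rose in *syp-2::AID* worms (median log2 fold change 3.63) and all 8 rose in N2 worms (3.08).

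**Figure D1:**
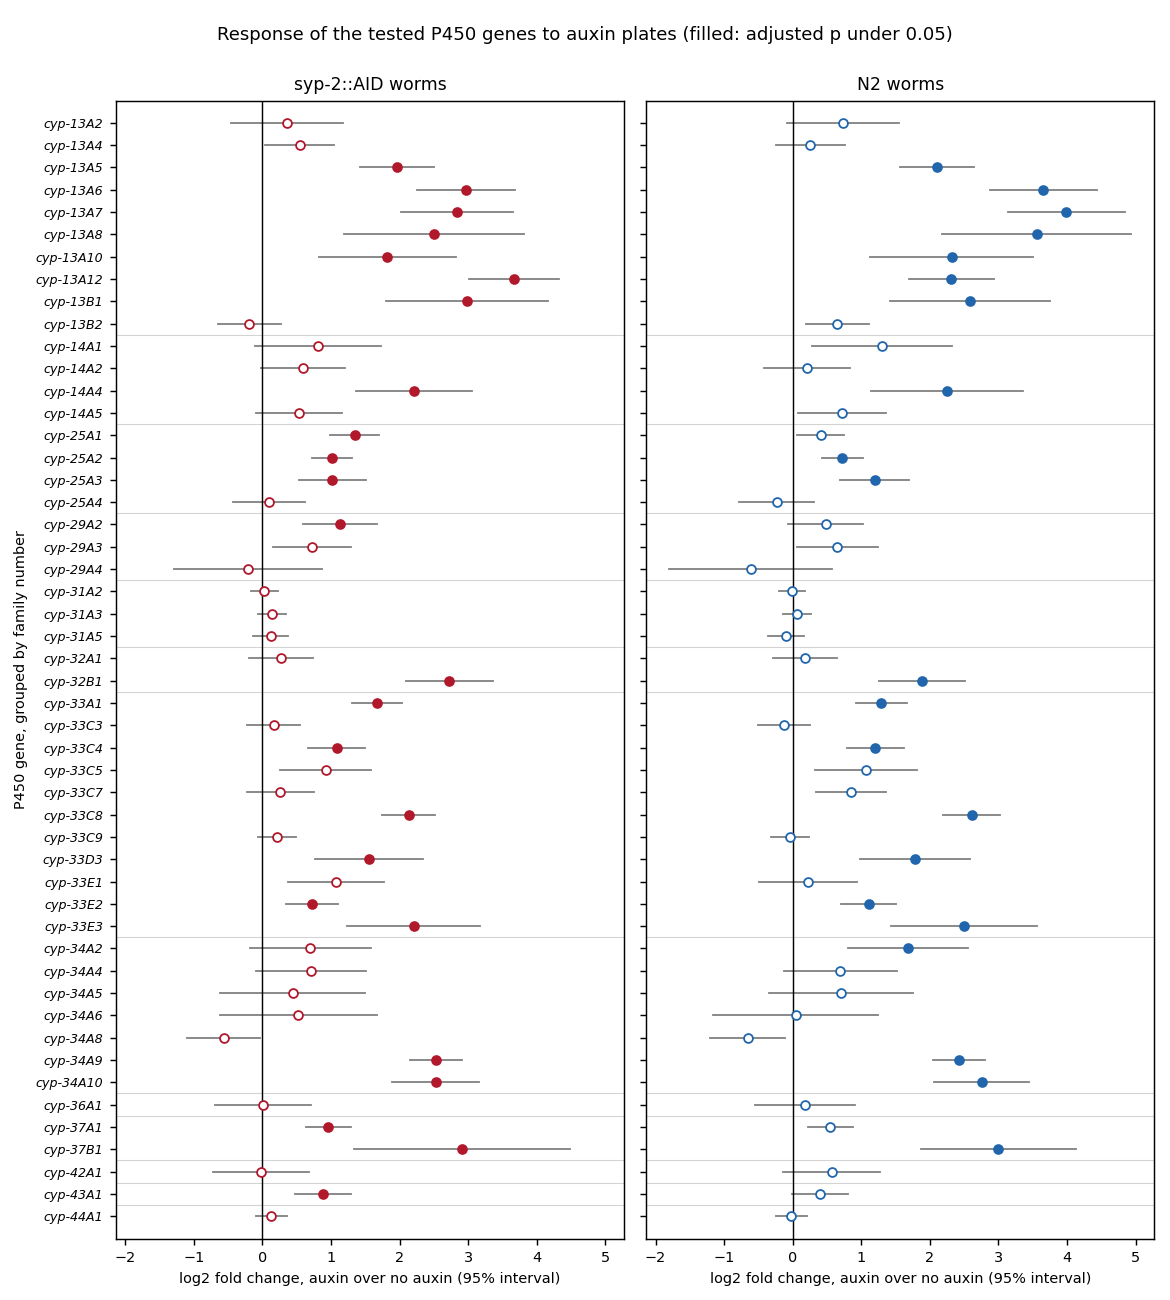
Log2 fold change between auxin and no auxin for each of the 50 tested P450 genes, in *syp-2::AID* worms (left) and N2 worms (right), grouped by family number. Points are edgeR estimates, lines their 95% intervals, and filled points mark an adjusted p under 0.05, which 24 genes reached in *syp-2::AID* worms and 21 in N2 worms, all of them above 0.

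The same 20 genes rose in both strains, in families 13, 14, 25, 32, 33, 34 and 37. They were *cyp-13A5*, *cyp-13A6*, *cyp-13A7*, *cyp-13A8*, *cyp-13A10*, *cyp-13A12*, *cyp-13B1*, *cyp-14A4*, *cyp-25A2*, *cyp-25A3*, *cyp-32B1*, *cyp-33A1*, *cyp-33C4*, *cyp-33C8*, *cyp-33D3*, *cyp-33E2*, *cyp-33E3*, *cyp-34A9*, *cyp-34A10* and *cyp-37B1*. Of the 13 genes that passed the filter only with the help of the auxin libraries, 11 rose in each strain. All 11 are among these 20, and for them the filter itself favours a rise in both strains. Of all tested genes 3.99% rose in N2 worms, which is the most that could have risen in both strains. A further 4 passed in *syp-2::AID* worms and not in N2 worms (*cyp-25A1*, *cyp-29A2*, *cyp-37A1*, *cyp-43A1*), and *cyp-34A2* passed in N2 worms and not in *syp-2::AID* worms. The remaining 25 tested genes passed in neither strain.

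Family 13 had 7 of its 10 tested genes up in each strain. Of these 7, *cyp-13A5* and *cyp-13A12* passed the filter on the untreated libraries alone, and *cyp-13A6*, *cyp-13A7*, *cyp-13A8*, *cyp-13A10* and *cyp-13B1* only with the help of the auxin libraries. *cyp-13A12* is known to act downstream of EGL-9 and HIF-1 when worms return to oxygen after anoxia. It was at 9.61, 8.20, 8.26 and 8.55 CPM in *syp-2::AID* worms with auxin, against 0.606, 0.732, 0.649 and 0.719 CPM without auxin. In N2 worms its levels were 5.46, 9.45, 5.99 and 6.09 CPM with auxin, against 0.719, 1.08, 2.59 and 1.07 CPM without auxin. The groups did not overlap in either strain, and N2 replicate 3 was the highest untreated library. Its log2 fold change was 3.66 in *syp-2::AID* worms (standard error 0.31, edgeR adjusted p = 7.00e-07) and 2.31 in N2 worms (standard error 0.29, edgeR adjusted p = 7.28e-05). The first is the largest rise among the P450 genes in *syp-2::AID* worms, 12.7-fold.

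*cyp-13A7*, a gene known to be induced by the drug rifampicin, showed the largest rise in N2 worms. Its levels there were 3.75, 4.26, 5.49 and 4.33 CPM with auxin, against 0.327, 0.336, 0.370 and 0.0668 CPM without auxin. The *syp-2::AID* libraries were at 2.23, 1.97, 3.12 and 2.92 CPM with auxin, against 0.0606, 0.471, 0.379 and 0.479 CPM without auxin. No library with auxin came near an untreated one, although the untreated values rest on 1 to 9 counts each. The log2 fold change was 2.84 in *syp-2::AID* worms (standard error 0.38, edgeR adjusted p = 0.000110) and 3.99 in N2 worms (standard error 0.40, edgeR adjusted p = 6.29e-06).

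*cyp-13A5* was by far the most abundant member of family 13 after auxin. It had 26.6, 36.4, 45.6 and 31.8 CPM in *syp-2::AID* worms with auxin, against 7.82, 5.96, 8.38 and 14.0 CPM without auxin. N2 worms had 38.2, 54.6, 44.7 and 53.7 CPM with auxin, against 15.8, 11.2, 7.69 and 9.62 CPM without auxin. Again the groups of each strain did not overlap, and the fold change was 3.89 in *syp-2::AID* worms and 4.30 in N2 worms (log2 fold change 1.96 and 2.11, edgeR adjusted p = 7.03e-05 and 4.18e-05).

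*cyp-13A6*, next to *cyp-13A5* on the chromosome, was nearly silent without auxin. It had 1.95, 2.098, 1.38 and 1.81 CPM in *syp-2::AID* worms with auxin, against 0.182, 0.366, 0.108 and 0.240 CPM without auxin. In N2 worms it had 1.59, 1.85, 2.24 and 2.44 CPM with auxin, against 0.131, 0.0673, 0.222 and 0.2004 CPM without auxin. Its log2 fold change was 2.96 in *syp-2::AID* worms (95% interval 2.25 to 3.68, edgeR adjusted p = 1.70e-05) and 3.66 in N2 worms (95% interval 2.88 to 4.43, edgeR adjusted p = 6.20e-06). *cyp-13B1* is a relative of another letter in the same family. It had 2.35, 2.61, 0.870 and 1.46 CPM in *syp-2::AID* worms with auxin, against 0.182, 0.157, 0.433 and 0.1198 CPM without auxin, and 1.71, 2.20, 1.93 and 1.65 CPM in N2 worms with auxin, against 0.261, 0.202, 0 and 0.735 CPM without auxin. The groups of both genes were apart in each strain. At 0 to 11 counts in an untreated library, the interval of *cyp-13B1* was wide, with a log2 fold change of 2.98 in *syp-2::AID* worms (95% interval 1.80 to 4.16, edgeR adjusted p = 0.00251) and 2.59 in N2 worms (95% interval 1.43 to 3.75, edgeR adjusted p = 0.00830).

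**Figure D2:**
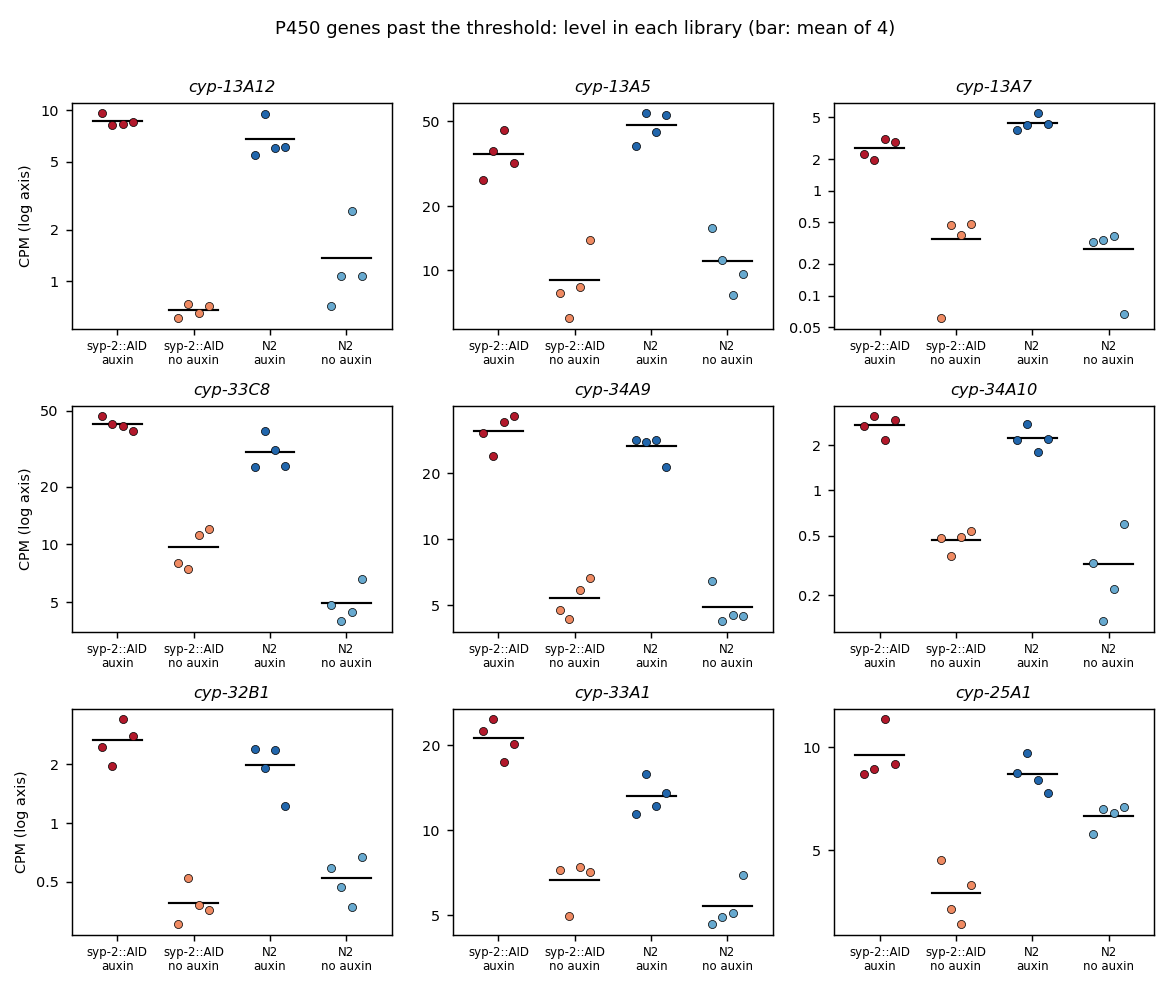
Level in CPM (log axis, a separate scale for each gene) of 9 P450 genes past the threshold in 1 or both strains, with a point for each of the 16 libraries and a bar at each group mean. In all 9 panels the auxin libraries of each strain lie above its untreated libraries, which choosing genes past the threshold favours. *cyp-13A7*, *cyp-32B1* and *cyp-34A10* passed the filter only with the help of the auxin libraries. *cyp-25A1* (last panel) moved least in N2 worms, where its log2 fold change was 0.41 and did not pass.

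Family 33 is the largest, with 18 genes listed and 11 tested, of which 6 rose in each strain. *cyp-33C8* was the most abundant P450 gene per exon length outside the *cyp-31A* genes in *syp-2::AID* worms with auxin, at 25.4 CPM per kb, although its range overlapped that of *cyp-44A1* (23.1 CPM per kb). It was at 46.8, 42.5, 41.3 and 39.0 CPM in *syp-2::AID* worms with auxin, against 8.0, 7.48, 11.1 and 12.1 CPM without auxin. In N2 worms it had 25.4, 38.9, 31.3 and 25.8 CPM with auxin, against 4.84, 3.97, 4.43 and 6.61 CPM without auxin. All auxin libraries exceeded all untreated ones, and the log2 fold change was 2.13 in *syp-2::AID* worms (standard error 0.18, edgeR adjusted p = 8.28e-07) and 2.61 in N2 worms (standard error 0.19, edgeR adjusted p = 1.79e-07).

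*cyp-33A1* averaged 21.2 ± 3.14 CPM with auxin and 6.68 ± 1.15 CPM without in *syp-2::AID* worms, and 13.3 ± 1.93 CPM with auxin and 5.40 ± 1.05 CPM without in N2 worms (SD, n = 4 each), a rise in both (log2 fold change 1.67, edgeR adjusted p = 5.23e-06, and 1.29, edgeR adjusted p = 0.000126). *cyp-33E2* encodes an enzyme of the pharynx that makes eicosanoids. It had 6.52, 6.48, 5.07 and 8.55 CPM in *syp-2::AID* worms with auxin, against 4.61, 3.77, 4.06 and 3.71 CPM without auxin. In N2 worms its values were 5.29, 6.68, 7.54 and 6.22 CPM with auxin, against 3.20, 2.35, 2.73 and 3.61 CPM without auxin. The groups did not overlap, but the rise was among the smallest that passed, with a log2 fold change of 0.72 in *syp-2::AID* worms (edgeR adjusted p = 0.0231) and 1.11 in N2 worms (edgeR adjusted p = 0.00134). Further up in both strains were *cyp-33C4* (log2 fold change 1.08 in *syp-2::AID* worms and 1.21 in N2 worms), *cyp-33D3* (1.56 and 1.79) and *cyp-33E3* (2.20 and 2.50). The last 2 were under 3 CPM in every library and passed the filter only with the help of the auxin libraries, which favours a rise.

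In family 34, 2 of 7 tested genes rose in *syp-2::AID* worms and 3 in N2 worms. *cyp-34A9* was at 30.6, 23.9, 34.1 and 36.4 CPM in *syp-2::AID* worms with auxin, against 4.79, 4.34, 5.90 and 6.65 CPM without auxin. Its N2 levels were 28.3, 27.8, 28.4 and 21.4 CPM with auxin, against 6.47, 4.24, 4.51 and 4.48 CPM without auxin. With no overlap, its log2 fold change of 2.53 in *syp-2::AID* worms (standard error 0.18, edgeR adjusted p = 8.55e-08) and 2.42 in N2 worms (standard error 0.18, edgeR adjusted p = 1.79e-07) was of like size in the strains. *cyp-34A10*, next to it in the genome, was at a lower level, with 2.69, 3.11, 2.17 and 2.92 CPM in *syp-2::AID* worms with auxin, against 0.485, 0.366, 0.487 and 0.539 CPM without auxin. In N2 worms its values were 2.16, 2.77, 1.81 and 2.19 CPM with auxin, against 0.327, 0.135, 0.222 and 0.601 CPM without auxin. It too rose without overlap in both strains (log2 fold change 2.52 in *syp-2::AID* worms and 2.76 in N2 worms, edgeR adjusted p = 2.89e-05 and 3.52e-05). However, *cyp-34A10* passed the filter only with the help of the auxin libraries, which favours such a gap. *cyp-34A2* had 2.58, 1.53, 0.942 and 2.78 CPM in *syp-2::AID* worms with auxin, against 1.27, 0.523, 1.51 and 1.56 CPM without auxin, which overlap. Its N2 values were 4.72, 5.04, 3.37 and 2.25 CPM with auxin, against 0.915, 0.807, 0.887 and 2.14 CPM without auxin, and it rose (log2 fold change 1.68, edgeR adjusted p = 0.0225). This call was lost without N2 auxin replicate 1 or 2 or N2 untreated replicate 1, 2 or 3, and over all alternatives its log2 fold change lay between 1.49 and 2.13 and its edgeR, DESeq2 or limma-voom adjusted p between 0.00204 and 0.0806.

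*cyp-34A8* is the P450 gene with the largest change in the other direction, and it was picked out after its values were seen. It was at 7.61, 6.80, 5.07 and 7.85 CPM in *syp-2::AID* worms with auxin, against 8.24, 8.68, 12.9 and 10.7 CPM without auxin. N2 worms had 6.60, 7.53, 4.24 and 4.20 CPM with auxin, against 7.84, 5.85, 8.50 and 13.4 CPM without auxin. The groups were apart in *syp-2::AID* worms and overlapped in N2 worms, and neither log2 fold change passed edgeR's test (-0.57, adjusted p = 0.150, and -0.66, adjusted p = 0.172).

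Among the 4 tested genes of family 25, 3 rose in *syp-2::AID* worms and 2 in N2 worms. *cyp-25A2*, the most abundant of them, had 16.3, 15.7, 18.9 and 18.3 CPM in *syp-2::AID* worms with auxin, against 7.39, 8.58, 8.87 and 9.28 CPM without auxin. The N2 worms had 10.5, 14.8, 13.2 and 13.2 CPM with auxin, against 6.27, 7.67, 8.28 and 9.08 CPM without auxin. Its groups were apart in both strains (log2 fold change 1.02, edgeR adjusted p = 0.000114, and 0.73, edgeR adjusted p = 0.00412). *cyp-25A3* had log2 fold changes of 1.02 in *syp-2::AID* worms and 1.19 in N2 worms. *cyp-25A1* was at 8.36, 8.65, 12.1 and 8.97 CPM in *syp-2::AID* worms with auxin, against 4.67, 3.35, 3.03 and 3.95 CPM without auxin. Its N2 levels were 8.41, 9.66, 8.04 and 7.37 CPM with auxin, against 5.56, 6.59, 6.43 and 6.68 CPM without auxin. The groups were apart in both strains, but only the *syp-2::AID* change passed edgeR's test (log2 fold change 1.34, adjusted p = 4.60e-05, against 0.41 in N2 worms, adjusted p = 0.186).

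Family 32 has 2 tested genes and 1 of them rose in each strain. *cyp-32B1* had 2.46, 1.97, 3.41 and 2.78 CPM in *syp-2::AID* worms with auxin, against 0.303, 0.523, 0.379 and 0.359 CPM without auxin. N2 worms had 2.39, 1.92, 2.37 and 1.22 CPM with auxin, against 0.588, 0.471, 0.370 and 0.668 CPM without auxin. Its groups were apart (log2 fold change 2.73 in *syp-2::AID* worms and 1.89 in N2 worms, edgeR adjusted p = 1.11e-05 and 0.000651). It passed the filter only with the help of the auxin libraries, which favours such a gap. The other family 32 gene, *cyp-32A1*, did not pass. *cyp-32A1* had 4.46, 4.77, 4.93 and 6.05 CPM in *syp-2::AID* worms with auxin, against 3.21, 3.09, 4.76 and 5.69 CPM without auxin, and 3.98, 6.18, 5.30 and 5.73 CPM in N2 worms with auxin, against 5.03, 4.04, 3.70 and 5.88 CPM without auxin. Its groups overlapped in both strains (log2 fold change 0.27 and 0.18). In family 37 both genes rose in *syp-2::AID* worms and 1 in N2 worms. *cyp-37A1* was at 20.1, 21.3, 29.1 and 33.6 CPM in *syp-2::AID* worms with auxin, against 15.0, 12.4, 13.1 and 12.8 CPM without auxin. N2 worms had 25.3, 26.8, 24.3 and 20.8 CPM with auxin, against 19.7, 16.3, 16.3 and 14.2 CPM without auxin. Neither strain's groups overlapped, and the log2 fold change was 0.96 in *syp-2::AID* worms (edgeR adjusted p = 0.000721) and 0.55 in N2 worms, just short of the threshold (edgeR adjusted p = 0.0508).

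*cyp-37B1* (log2 fold change 2.91 in *syp-2::AID* worms and 3.00 in N2 worms) and *cyp-14A4* (2.21 and 2.25) rose over very few counts, at most 3 and 7 in any untreated library. Both passed the filter only with the help of the auxin libraries, which favours a rise. *cyp-14A5*, the most abundant gene of family 14 per exon length, had 4.75, 4.45, 3.55 and 5.35 CPM in *syp-2::AID* worms with auxin, against 2.30, 2.51, 4.44 and 3.29 CPM without auxin, and 3.01, 5.97, 3.18 and 4.87 CPM in N2 worms with auxin, against 2.29, 1.61, 2.22 and 4.21 CPM without auxin. It overlapped between the groups and did not pass (log2 fold change 0.53 and 0.71, edgeR adjusted p = 0.228 and 0.217).

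*cyp-43A1*, the only gene of its family, had 16.7, 13.7, 20.9 and 25.1 CPM in *syp-2::AID* worms with auxin, against 9.15, 8.0, 10.7 and 13.4 CPM without auxin. N2 libraries had 17.7, 20.5, 16.5 and 13.6 CPM with auxin, against 15.4, 11.97, 12.05 and 12.6 CPM without auxin. The groups were apart in *syp-2::AID* worms and overlapped in N2 worms. It passed in *syp-2::AID* worms (log2 fold change 0.89, edgeR adjusted p = 0.00907) but not on the 8 *syp-2::AID* libraries alone or without both libraries that stood apart, where its log2 fold change was as low as 0.56. It overlaps C41G11.1 on the other strand, a gene of 19.2 CPM on average that did not move with it (0.23 in *syp-2::AID* worms and -0.18 in N2 worms). *cyp-42A1*, alone in family 42, had 2.98, 1.40, 1.01 and 1.04 CPM in *syp-2::AID* worms with auxin, against 1.33, 2.04, 1.78 and 1.44 CPM without auxin. In the N2 libraries it had 2.73, 2.42, 1.81 and 1.65 CPM with auxin, against 1.37, 1.21, 1.11 and 2.07 CPM without auxin. Its groups overlapped and it did not pass (log2 fold change -0.02 and 0.57).

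In family 29, 1 of 3 tested genes rose in *syp-2::AID* worms and none in N2 worms. *cyp-29A3*, whose enzyme makes eicosanoids from polyunsaturated fatty acids, had 6.41, 5.09, 3.33 and 4.73 CPM in *syp-2::AID* worms with auxin, against 3.03, 2.88, 2.54 and 3.47 CPM without auxin. In N2 worms the values were 2.96, 3.55, 3.74 and 5.12 CPM with auxin, against 2.55, 1.48, 1.85 and 3.87 CPM without auxin. Groups overlapped in both strains, and the log2 fold changes of 0.72 and 0.65 did not pass edgeR's test (adjusted p = 0.104 and 0.218). *cyp-29A2* had 7.04, 7.82, 5.65 and 4.52 CPM in *syp-2::AID* worms with auxin, against 2.48, 1.94, 3.41 and 3.59 CPM without auxin, which did not overlap and passed (log2 fold change 1.13, edgeR adjusted p = 0.0109). Its N2 values were 3.70, 4.97, 4.68 and 3.72 CPM with auxin, against 2.88, 2.08, 2.66 and 4.54 CPM without auxin, which overlapped (log2 fold change 0.48, 95% interval -0.06 to 1.03). *cyp-29A4* passed in neither strain.

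The *cyp-31A* genes were the most abundant P450 genes in all 4 groups, and none of them passed the test. CYP-31A2 and CYP-31A3 work with the reductase EMB-8 on lipids that make the embryo's eggshell a barrier. *cyp-31A2* was at 121, 126, 125 and 117 CPM in *syp-2::AID* worms with auxin, against 119, 137, 109.5 and 114 CPM without auxin. In N2 worms it was at 112, 99.0, 114 and 118 CPM with auxin, against 113, 124.01, 113 and 95.2 CPM without auxin. The groups overlapped throughout, and the 95% interval of the log2 fold change ran from -0.16 to 0.22 in *syp-2::AID* worms and from -0.20 to 0.18 in N2 worms. *cyp-31A3* had 79.6, 85.9, 87.9 and 96.2 CPM in *syp-2::AID* worms with auxin, against 76.0, 89.97, 73.4 and 79.1 CPM without auxin, and 70.3, 66.3, 74.6 and 81.3 CPM in N2 worms with auxin, against 68.6, 78.7, 71.6 and 60.7 CPM without auxin. These groups overlapped too, and the log2 fold changes of *cyp-31A3* and *cyp-31A5* lay between -0.10 and 0.13. *cyp-31A2* and *cyp-31A3* are known as near-identical copies, so how the counting split reads between them is uncertain.

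In all 4 groups the order by level per exon length began with *cyp-31A2*, *cyp-31A3* and *cyp-31A5*. *cyp-31A2* lay clear of the next gene in every group, whereas the ranges of *cyp-31A3* and *cyp-31A5* overlapped. In *syp-2::AID* worms with auxin these were followed by *cyp-33C8*, *cyp-44A1* and *cyp-13A5*, whose ranges overlapped from each gene to the next. N2 worms with auxin had *cyp-13A5* (28.7 CPM per kb), *cyp-44A1* (18.8 CPM per kb) and *cyp-33C8* (18.2 CPM per kb) in these places. Without auxin the fourth place went to *cyp-44A1* in both strains (21.1 CPM per kb in *syp-2::AID* worms and 19.1 CPM per kb in N2 worms), clear of the gene that came next.

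**Figure D3:**
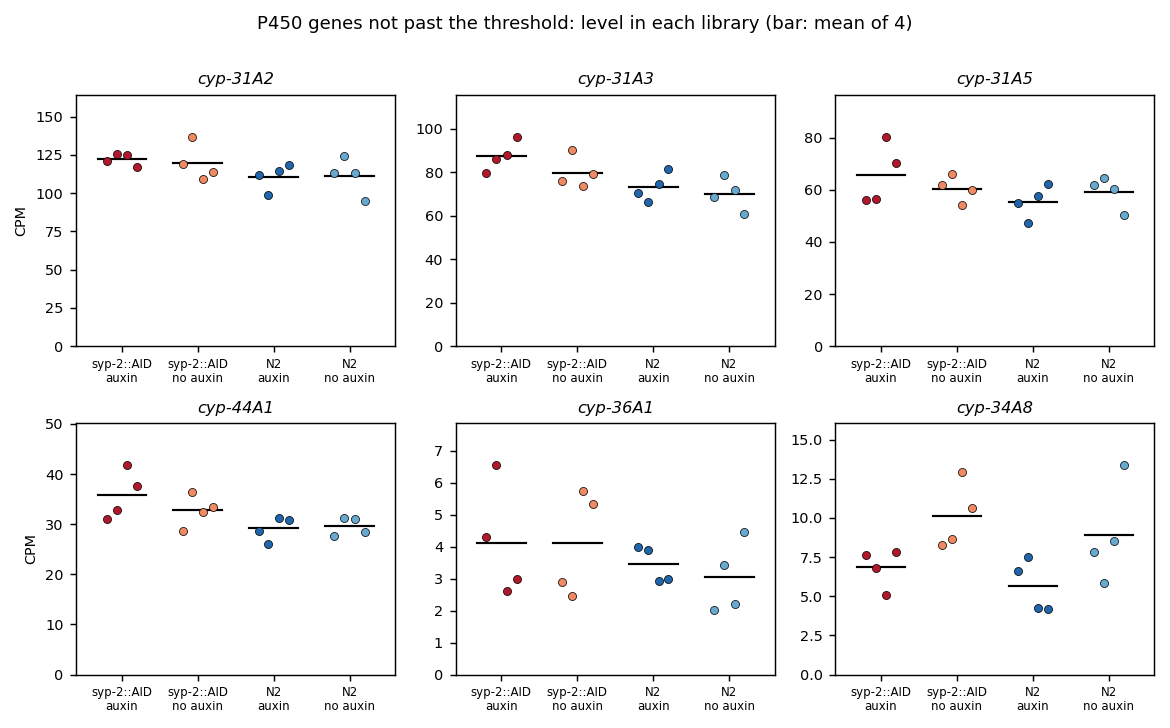
Level in CPM (linear axis from 0, a separate scale for each gene) of 6 P450 genes that passed the test in neither strain, with a point for each of the 16 libraries and a bar at each group mean. The 3 *cyp-31A* genes and *cyp-44A1* keep like levels in all 4 groups, *cyp-36A1* spreads widely within groups, and *cyp-34A8* averaged 6.84 CPM with auxin and 10.1 CPM without in *syp-2::AID* worms.

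*cyp-44A1* encodes the mitochondrial type of P450. It was at 31, 32.9, 41.8 and 37.5 CPM in *syp-2::AID* worms with auxin, against 28.7, 36.5, 32.5 and 33.5 CPM without auxin, and its N2 groups averaged 29.2 ± 2.39 CPM with auxin and 29.6 ± 1.88 CPM without (SD, n = 4 each). Its log2 fold changes of 0.13 and -0.02 did not pass, with 95% intervals of -0.10 to 0.35 in *syp-2::AID* worms and -0.25 to 0.21 in N2 worms. The annotation overlaps it with ZK177.4 on the same strand (34.99 CPM on average), and reads could be shared. *cyp-36A1*, which acts downstream of EGL-9 and HIF-1 in the hypoxia response, had 4.29, 6.55, 2.61 and 2.99 CPM in *syp-2::AID* worms with auxin, against 2.91, 2.46, 5.73 and 5.33 CPM without auxin. These groups overlapped fully, the log2 fold change was 0.01 (95% interval -0.70 to 0.71), and in N2 worms it was 0.18 (-0.54 to 0.91). It overlaps the more abundant C34B7.2 (42.4 CPM on average) on the other strand.

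The 25 genes that passed in neither strain also included most of families 14 and 34 and several *cyp-33C* genes. Their intervals differ in what they allow: over all 50 genes, 12 of the 95% intervals in *syp-2::AID* worms and 15 in N2 worms stayed within 2-fold in either direction. The 15 untested genes had at most 87 counts over all 16 libraries, and 12 of them stayed under 10 counts in every library. The highest of them, *cyp-13A11*, had 8, 10, 4 and 5 counts in *syp-2::AID* worms with auxin, against 1, 0, 1 and 1 counts without auxin, and 20, 8, 13 and 9 counts in N2 worms with auxin, against 3, 2, 2 and 0 counts without auxin. *cyp-23A1*, the only gene of family 23, had between 0 and 4 counts in every library, so no difference was detectable at this depth.

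By the gene order of WBcel235, 24 P450 genes lie in 5 runs of 3 or more direct neighbours. The coordinates are not given because the authors aligned to an older build. In the run of 7 from *cyp-13A2* to *cyp-13A8* on chromosome II, the 4 genes from *cyp-13A5* to *cyp-13A8* rose in both strains, with log2 fold changes of 1.96 to 2.96 in *syp-2::AID* worms and 2.11 to 3.99 in N2 worms. Of these, *cyp-13A6*, *cyp-13A7* and *cyp-13A8* passed the filter only with the help of the auxin libraries, which favours a rise. At the other end, *cyp-13A2* (0.36 and 0.73) and *cyp-13A4* (0.54 and 0.26) did not pass, and *cyp-13A3* was too low to test. The run of 6 from *cyp-34A5* to *cyp-34A10* on chromosome V held *cyp-34A8*, with the largest negative value among the tested P450 genes in each strain, directly beside *cyp-34A9*, which *cyp-34A10* follows. Of the run of 5 around *cyp-33C4* on chromosome V, only *cyp-33C4* at its end passed in either strain, although *cyp-33C7* came close in N2 worms (log2 fold change 0.85, edgeR adjusted p = 0.0501). All 3 genes of the *cyp-25A1* to *cyp-25A3* run on chromosome III rose in *syp-2::AID* worms, and none of the 2 tested genes of the *cyp-14A1* to *cyp-14A3* run on chromosome X rose in either strain. Related neighbours can share reads, and how the counting treated reads that map to several places is not given in the sources used here.

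**Figure D4:**
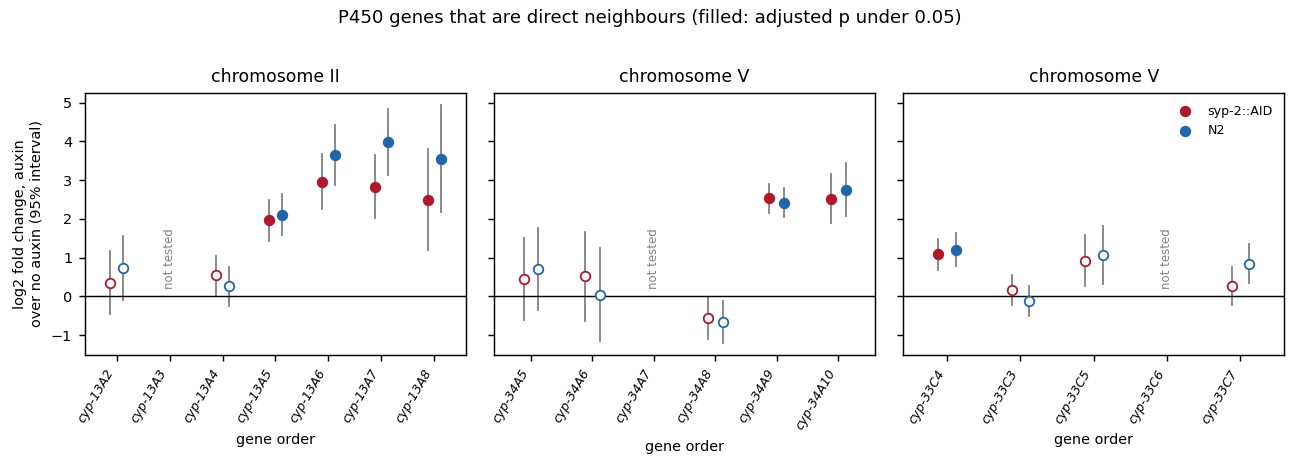
Log2 fold change between auxin and no auxin (points, with 95% intervals; filled at an adjusted p under 0.05) along 3 runs of neighbouring P450 genes, in gene order, for *syp-2::AID* and N2 worms. In the chromosome II run the 4 genes on the right are above 1.9 in both strains, and in the first chromosome V run *cyp-34A8* lies below 0 beside *cyp-34A9*, which lies above 2.4. *cyp-13A6*, *cyp-13A7*, *cyp-13A8*, *cyp-33C5*, *cyp-34A6* and *cyp-34A10* passed the filter only with the help of the auxin libraries.

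The response to auxin was then compared between the strains, which asks whether the rises depend on the degron strain. No P450 gene differed by edgeR's test of the interaction, where 0.00849% of all tested genes did in each direction. An unadjusted p under 0.05 was reached by 3 of the 50, where 17.6% of all tested genes reached it, DESeq2 passed 1 (*cyp-25A1*) and limma-voom passed none. The differences between the strains, as the *syp-2::AID* minus the N2 log2 fold change, ran from -1.15 (*cyp-13A7*, 95% interval -2.39 to 0.08) to 1.35 (*cyp-13A12*, 95% interval 0.45 to 2.25, edgeR adjusted p = 0.221). That of *cyp-25A1* was 0.94 (95% interval 0.45 to 1.43, edgeR adjusted p = 0.174), and that of *cyp-13B2*, the third at an unadjusted p under 0.05, was -0.84 (95% interval -1.50 to -0.19). For *cyp-34A9* the interval of the difference was -0.42 to 0.63 and for *cyp-33C8* it was -1.03 to 0.07, so the data allow differences of either sign for these genes. By edgeR's test, the 4 genes that passed in *syp-2::AID* worms alone and *cyp-34A2* are not shown to respond differently in the strains. Of these, *cyp-25A1* passed with DESeq2 only.

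Between untreated *syp-2::AID* and untreated N2 worms, 1 P450 gene was higher and 1 lower, where 0.679% of all tested genes were higher and 0.195% lower. *cyp-33C8*, with the values given above, was higher in *syp-2::AID* worms (log2 difference 0.96, standard error 0.19, edgeR adjusted p = 0.0296). *cyp-25A1* was lower in them (-0.75, standard error 0.17, edgeR adjusted p = 0.0444). Neither gene's groups overlapped (exact two-sided permutation test on CPM, p = 0.0286 for each, the smallest that 4 against 4 libraries can give). Both calls were lost without *syp-2::AID* untreated replicate 3 or 4 or N2 untreated replicate 1, 2 or 3, with limma-voom and with the replicate number as a block (no P450 gene called in each case). That of *cyp-25A1* was also lost without *syp-2::AID* untreated replicate 2 or any N2 auxin replicate. Over all alternatives the log2 difference stayed between 0.84 and 1.13 for *cyp-33C8* and between -0.88 and -0.66 for *cyp-25A1*. The untreated libraries enter both this comparison and the auxin responses, so the values are not independent of each other.

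Some rises also rested on single libraries in *syp-2::AID* worms. *cyp-13A8* did not pass without auxin replicate 3 or untreated replicate 1, 2 or 3 (adjusted p up to 0.130 over all alternatives), and *cyp-13A10* did not without untreated replicate 1, 2 or 4 (up to 0.0895). *cyp-33E2* did not pass without auxin replicate 4 or untreated replicate 2, 3 or 4 (adjusted p up to 0.0985). *cyp-33D3* did not without auxin replicate 3 or untreated replicate 2 or 3 (up to 0.112), and *cyp-37B1* did not without auxin replicate 3 or 4 or untreated replicate 3 or 4 (up to 0.213). The call of *cyp-33E3* was lost only without both libraries that stood apart (adjusted p = 0.0536). In N2 worms *cyp-13A10* did not pass without auxin replicate 2 or untreated replicate 2 or 3 (adjusted p up to 0.0852), and *cyp-14A4* did not without auxin replicate 2 or untreated replicate 1, 2 or 3 (up to 0.0600). All of these kept their sign in every alternative.

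P450 enzymes need electron donors, and 4 such genes were followed from a list written with earlier results of these data known. *emb-8*, the P450 reductase, was at 224, 216, 201 and 197 CPM in *syp-2::AID* worms with auxin, against 155, 152, 158 and 169.9 CPM without auxin. The N2 worms had 187, 186, 189.8 and 184 CPM with auxin, against 165, 148, 146 and 135 CPM without auxin. The groups did not overlap, and the rise was small in both strains (log2 fold change 0.40, edgeR adjusted p = 0.00205, and 0.33, edgeR adjusted p = 0.0110). *cytb-5.1*, a cytochrome b5 gene, had 105, 94.1, 127 and 152 CPM in *syp-2::AID* worms with auxin, against 62.6, 59.5, 65.2 and 64.3 CPM without auxin. Its N2 levels were 77.4, 101, 85.1 and 84.6 CPM with auxin, against 58.8, 56.6, 55.9 and 71.1 CPM without auxin. It rose in both strains (log2 fold change 0.93, edgeR adjusted p = 0.000155, and 0.52, edgeR adjusted p = 0.0242), with its highest values in the 2 auxin libraries of *syp-2::AID* worms that stood apart. The other 2 genes of the list, *cytb-5.2* and *hpo-19*, did not pass (0.20 and 0.16 for *cytb-5.2*, 0.20 and 0.15 for *hpo-19*). Of all tested genes 5.27% rose in *syp-2::AID* worms and 3.99% in N2 worms. In N2 worms the call of *emb-8* was lost without auxin replicate 2 (adjusted p up to 0.0795 over all alternatives), and that of *cytb-5.1* without auxin replicate 2 or 3 or untreated replicate 1, 2 or 3 (up to 0.117).

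**Figure D5:**
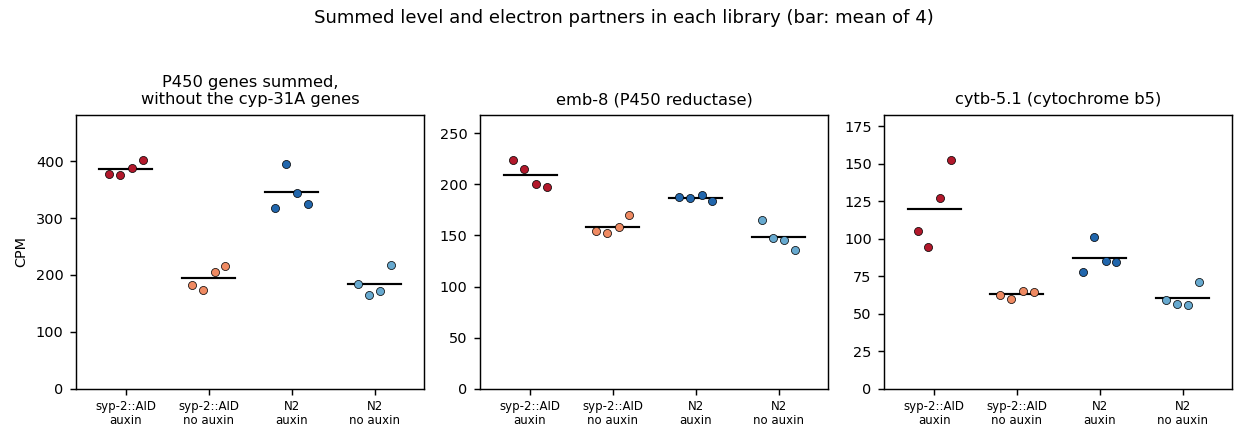
Summed level of the P450 genes without the *cyp-31A* genes (left) and levels of the reductase gene *emb-8* (middle) and the cytochrome b5 gene *cytb-5.1* (right) in CPM, with a point for each of the 16 libraries and a bar at each group mean. In all 3 panels the auxin libraries of each strain lie above its untreated ones, with group means of 386 CPM with auxin and 194 CPM without for the sum in *syp-2::AID* worms. With the *cyp-31A* genes included, these means were 661 CPM and 454 CPM.

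Of the hormone pathway around DAF-9, itself a P450 that makes dafachronic acids, 4 of 6 listed genes were tested and none passed in either strain. In *syp-2::AID* worms 1 of the 4 reached an unadjusted p under 0.05 by edgeR's test, where 30% of all tested genes did. In N2 worms 0 did, where 18.5% of all tested genes did. *daf-9* had 1.03, 0.826, 0.145 and 1.11 CPM in *syp-2::AID* worms with auxin, against 1.39, 1.10, 1.35 and 1.56 CPM without auxin. These groups overlapped (log2 fold change -0.77, edgeR adjusted p = 0.264), and in N2 worms the log2 fold change was -0.09. Of 11 listed regulators tied to P450 genes, 10 were tested. Among them *nhr-49*, a nuclear receptor of lipid metabolism, was lower with auxin in *syp-2::AID* worms, where 1.93% of all tested genes fell. No listed regulator passed in N2 worms. *nhr-49* had 82.8, 79.8, 51.5 and 42.3 CPM with auxin, against 92.2, 92.3, 93.4 and 98.9 CPM without auxin (log2 fold change -0.55, edgeR adjusted p = 0.0435). The 2 lowest values are those of the libraries that stood apart. The call held in 10 of 26 alternatives, with an adjusted p of up to 0.204 and a log2 fold change between -0.70 and -0.21. With 1 library left out it held only where that was *syp-2::AID* auxin replicate 1 or 2 or N2 untreated replicate 4.

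Markers of other tissues were checked beside the P450 genes. None of 7 germline markers passed with auxin in either strain, and their summed level was 2905 to 4256 CPM with auxin and 3911 to 4665 CPM without in *syp-2::AID* worms. Among the 7 tested of 13 early embryo markers, 2 rose in N2 worms (*sdz-28* and *sdz-30*), where 3.99% of all tested genes rose. The summed level of that list in N2 worms was 16.1 to 35 CPM with auxin and 9.90 to 17.4 CPM without. No early embryo marker passed in *syp-2::AID* worms (11.3 to 19.2 CPM with auxin and 13.2 to 24.7 CPM without). Of all tested genes 1.93% fell with auxin in *syp-2::AID* worms and 1.44% in N2 worms. Of 5 muscle markers 1 (*myo-3*) was lower with auxin in *syp-2::AID* worms (summed level 2472 to 4056 CPM with auxin and 3460 to 4658 CPM without). Of 7 intestine markers 1 was lower in *syp-2::AID* worms (*pept-1*) and 2 in N2 worms (*act-5* and *asp-1*). Of the 3 tested among 5 adult epidermis markers 1 was lower with auxin in N2 worms and none passed in *syp-2::AID* worms. The lower gene was *rol-6*, at means of 0.345 CPM with auxin and 5.88 CPM without in N2 worms. In *syp-2::AID* worms its means were 0.0529 CPM with auxin and 0.75 CPM without, so the untreated strains also lay apart in mean. The far more abundant *col-19* and *col-124* passed in neither strain.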

How the data were processed

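Whole-worm RNA of 16 libraries was sequenced by the authors as paired ends, converted with bcl2fastq 2.1.7 and aligned to ce10 with TopHat2 2.0.11, and reads on genes were counted with featureCounts. The deposited values are these counts per gene, not normalised. The annotation, the strand setting and how multi-mapping reads were treated were not given in the sources used here, and 21814 genes have no count.

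Counts were fitted in R 4.3.3 with edgeR 4.0.16 (TMM factors, filterByExpr at 10 counts, robust quasi-likelihood, two-sided, Benjamini-Hochberg over 11776 genes), with all 16 libraries as 4 groups sharing 1 estimate of the spread (biological coefficient of variation 0.185). CPM values use the same factors, intervals are 95%, and single genes were also compared by exact permutation of CPM. Exon lengths, gene order and overlaps came from WBcel235. Alternatives were RLE and upper-quartile factors, DESeq2 1.42.0, limma-voom (limma 3.58.1), other filters, 8 libraries alone, the replicate block, removal of each library's trend with exon length, and leaving out libraries. Scripts were tested on simulated data.

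Genes were named if past the threshold in any comparison. Values in every library were given by rule for up to 6 rises and 4 falls of each comparison (the largest called changes of genes averaging 1 CPM or more), for the most abundant gene per exon length of each family number, and for genes with a textbook role. Other genes that passed in no comparison, such as *cyp-34A8*, and further per-library values were chosen after the values were seen. The P450 genes and all lists were chosen with earlier results of these data known.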

Additional observations from a re-analysis of the deposited data

Results flagged for a closer look

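Levels of 24 P450 genes described in the report, and the summed level without the *cyp-31A* genes, were searched for libraries far from the other 3 of their group. Of the groups of 4 libraries searched, 100 in number, 7 held such a library, and chance alone picks out about 1 group in 20. In N2 worms with auxin, *cyp-13A12* was highest in replicate 2 (9.45 CPM) and *cyp-34A9* was lowest in replicate 4 (21.4 CPM). In untreated N2 worms, *cyp-34A9* was highest in replicate 1 (6.47 CPM), *cyp-43A1* was highest in replicate 1 (15.4 CPM), *cyp-13A7* was lowest in replicate 4 (0.0668 CPM, which is 1 count) and *cyp-23A1* was highest in replicate 4 (0.134 CPM, which is 2 counts). In *syp-2::AID* worms with auxin, *cyp-25A1* was highest in replicate 3 (12.1 CPM), 1 of the 2 libraries that stood apart.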

How the results depend on the processing

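The count of 24 rises in *syp-2::AID* worms was 13 with a filter of at least 10 counts in every library, which 34 P450 genes passed, and 17 to 25 under every other setting that kept all libraries or dropped both libraries that stood apart. The count of 21 rises in N2 worms was 12 with that filter and 19 to 25 under the others. Of all tested genes, 743 passed in either direction in *syp-2::AID* worms with that filter and 393 to 1345 under the others. In N2 worms 489 passed with it and 500 to 1577 under the others. Leaving out 1 library gave 21 to 26 rises in *syp-2::AID* worms and 19 to 26 in N2 worms. There 506 to 3170 of all tested genes passed in either direction in *syp-2::AID* worms and 417 to 749 in N2 worms. The number of P450 genes that differed between the strains was 0 under all settings except DESeq2, with 1. Between the untreated strains the 2 calls became 1 with upper-quartile factors, 1 with no filter beyond 1 count, 1 on the 8 libraries alone and 0 with limma-voom, and 0 to 3 with 1 library left out. Of the called genes, 17 of 24 in *syp-2::AID* worms, 18 of 21 in N2 worms and 0 of 2 between the untreated strains passed in every alternative that tested them, and every called gene kept its sign. Correlations of same-numbered libraries ran from -0.37 to 0.35, and the sources used here do not say whether replicate numbers mark samples handled together. Pairing by replicate number was thus neither shown nor excluded. With the replicate number as a block, 22 P450 genes rose in *syp-2::AID* worms, 20 in N2 worms, 0 differed between the strains in the auxin response and 0 differed between the untreated strains. Of all tested genes, 656 passed with auxin in *syp-2::AID* worms and 500 in N2 worms in that refit. Genes under about 10 counts a library in untreated worms could be tested only through their auxin libraries. P-values rest on the spread between replicates within groups, estimated over all 4 groups together. Libraries of 1 group therefore also bear on the comparisons of the others. With both libraries that stood apart left out, 1577 of all tested genes passed in N2 worms, against 640 with them kept.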
